A study of Homo sapiens with 3 samples.

Results

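The immunoglobulin kappa and lambda light-chain loci were examined in cultured SC1 cells, an established human line whose cell type is labelled DLBCL (diffuse large B-cell lymphoma). The loci were taken as 2 windows of the hg19 build, chr2:89100000-90280000 for kappa and chr22:22370000-23310000 for lambda, and every deposited interval that touched a window was a member. Of 215598 CREBBP peaks, 173 were members, 93 at kappa and 80 at lambda. Of 18263 H3K27ac regions, 61 were members, 27 at kappa and 34 at lambda. Together these were 234 of 233861 intervals on chromosomes 1 to 22 and X.

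The study used chromatin immunoprecipitation with sequencing (ChIP-seq), in which an antibody pulls down the DNA that a protein or a histone mark sits on. The 3 samples, all SC1 cells, were a ChIP for CREBBP (Santacruz antibody sc-7300X), a ChIP for histone H3 acetylated at lysine 27 (H3K27ac, Abcam antibody ab4729) and an input with no antibody, which was not analysed here. The labels name no treatment, genotype or time point, and no CREBBP-deficient cells, although the series title concerns CREBBP loss in DLBCL. The name of each deposited interval contains DMSO and rep2, and no label says what these refer to.

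There was 1 sample per antibody, so no value has a replicate error and no test between samples was made. Shares carry exact Clopper-Pearson 95% intervals and peak densities carry exact Poisson ones. Neither covers more than counting error, and both take peaks to be independent of each other.

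A light chain is the smaller partner of the heavy chain in an antibody. B cells assemble it by joining a variable (V) segment to a joining (J) segment, which is then spliced to a constant (C) gene. Kappa usually rearranges first, and lambda is used in cells where kappa joining has failed or its product was rejected. IGKC is the single kappa constant gene. Its J segments lie next to it, and the kappa V segments extend away from it in a proximal cluster and a duplicated, inverted distal cluster. At lambda each constant gene has a J segment of its own, so IGLC1, IGLC2 and IGLC3 stand in a row of similar J-C units. IGLL5 is a related gene that lies at the start of this row. Both loci have enhancers near or beyond the constant genes. H3K27ac marks active promoters and enhancers, and CREBBP is a lysine acetyltransferase that deposits this mark.

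The RefSeq gene table at hand belongs to another assembly (GRCh38.p14), so it was used for names and order only, and all 5 genes named above were found in it. It lists, from IGKC to the last distal V segment, 1 kappa constant gene, 5 J segments, 44 V segments and 32 V pseudogenes, with no protein-coding gene of another kind. It lists 4 lambda constant genes, 3 constant pseudogenes, 7 J segments, 37 V segments and 35 V pseudogenes. Among the lambda V segments it also places the protein-coding genes VPREB1, ZNF280B, ZNF280A, PRAME and GGTLC2, and then IGLL5. VPREB1 encodes part of the surrogate light chain of precursor B cells, and PRAME is a tumour antigen. No peak was assigned to one of these genes, and the cell type could not be checked against marker genes for the same reason. The constant part of kappa was the window from its start to 20 kb past the IGKC position, near 89.157 Mb. The constant part of lambda ran from 23.23 Mb to the end of the window, and by the rule that chose it this stretch holds the J-C genes and the 3′ enhancer. Where the genes end within it was not determined here. The rest of each window is called the variable part.

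H3K27ac covered far more of lambda than of kappa. At lambda 133.7 kb of 940 kb lay under H3K27ac, 14.2% of the window. At kappa 32.8 kb of 1180 kb did, 2.78%. The lambda share was 5.13 times the kappa share and 12.6 times the 1.12% of chromosomes 1 to 22 and X, and the kappa share was 2.47 times the latter. The chromosomes that carry the loci differed less than the loci did, with 2.09% of chromosome 22 and 1.09% of chromosome 2 covered.

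Windows of the same lengths were laid end to end along every chromosome to show how common such cover was. Only windows with at least 1 CREBBP peak were kept, and the grid cuts across the lambda locus itself. Of 3044 windows of the lambda length, 0.0329% (1 window) had at least the lambda share covered, and the median window had 0.591%. Of 2427 windows of the kappa length, 12.6% had at least the kappa share, and their median was 0.611%. Lambda thus stood at the upper end of the genome in H3K27ac cover, while kappa was above the middle of it. With the upper 50% of all regions by −log10 q alone, kappa cover was 0.0323%, and without the outer 50 kb of each side lambda cover was 8.96%. That trim removes most of the lambda constant part.

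**Figure D1:**
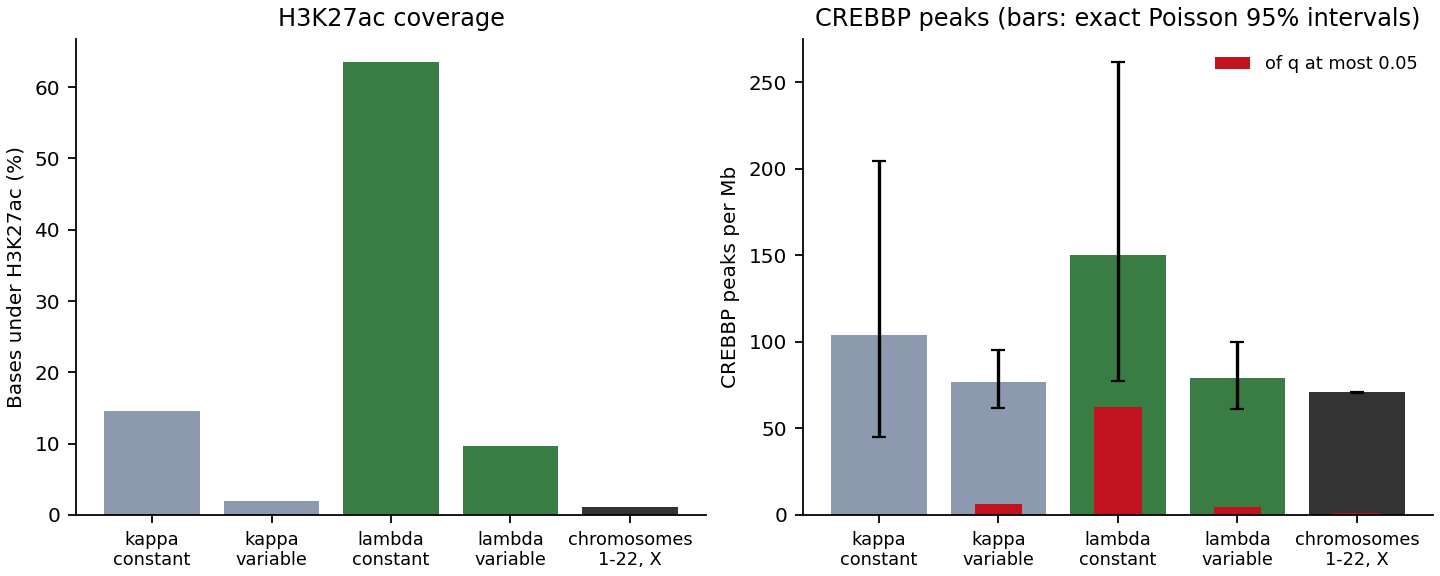
Share of bases under H3K27ac (left) and CREBBP peaks per Mb (right) in the constant and variable parts of kappa (blue-grey) and lambda (green) and over chromosomes 1 to 22 and X (black). Error bars are exact Poisson 95% intervals and the narrow red bars are the CREBBP peaks of q at most 0.05. H3K27ac cover was highest in the lambda constant part (63.6%), whereas the intervals of peak density overlap between the 4 parts.

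The lambda regions were also wider and more enriched. The fold enrichment of a region is the authors' ratio of ChIP signal to expected background, taken as a mean over the region. Lambda regions had a median width of 1745.5 bp and a median fold of 5.95 (interquartile range 3.46 to 8.78, range 1.50 to 23.8). Kappa regions had a median width of 892 bp and a median fold of 3.24 (2.41 to 4.30, range 1.65 to 6.0). Over the whole list the medians were 1423 bp and 4.92 (3.11 to 7.94). Of the 34 lambda regions 18 exceeded the list's median fold, and 8 were among the widest 10% of the list. Of the 27 kappa regions 1 exceeded the median fold, and 2 were among the widest 10%. By number the loci were closer, with 36.2 regions per Mb at lambda and 22.9 at kappa, a ratio of 1.58 (95% interval 0.926 to 2.72).

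**Figure D2:**
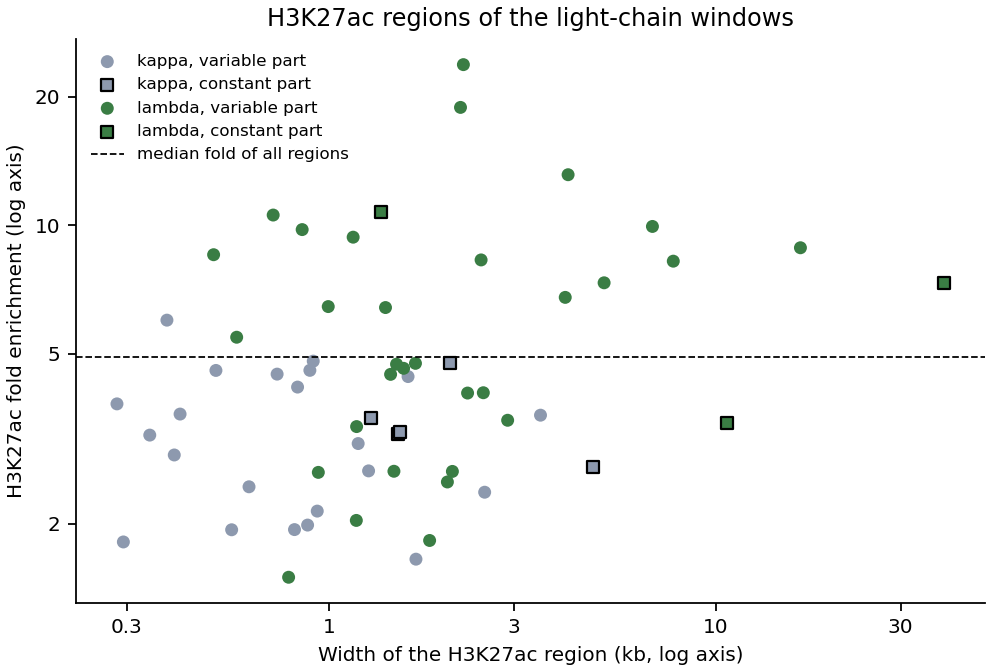
Width (horizontal, kb, log axis) against fold enrichment (vertical, log axis) of each of the 61 H3K27ac regions, with kappa in blue-grey, lambda in green, constant parts as squares and the list's median fold as a dashed line. One kappa region lies above the line, and the square at the far right is the 38832 bp region of the lambda constant part.

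CREBBP peaks did not separate the loci by number. Kappa held 78.8 peaks per Mb (63.6 to 96.6) and lambda 85.1 (67.5 to 105.9), a ratio of 1.08 (0.791 to 1.47). The whole list held 71.0 per Mb, chromosome 2 held 81.1 and chromosome 22 held 47.4. The deposited CREBBP list has no limit on q, the p-value corrected for the number of positions tested, and most of its peaks are weak. Those of q at most 0.05 are called the stronger peaks here and made up 1.81% of the list. They were 7 of the 93 kappa peaks, 7.53% (3.08 to 14.9%), and 9 of the 80 lambda peaks, 11.25% (5.28 to 20.3%). The ratio of their densities, lambda over kappa, was 1.61 (0.535 to 5.10). Of the same windows, 3.38% held at least the 7 stronger peaks of kappa and 1.05% at least the 9 of lambda.

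The share of CREBBP peaks inside the mark was higher at lambda, with overlapping intervals. At lambda 28 of 80 peaks were inside an H3K27ac region (an overlap of at least 1 bp), 35% (24.7 to 46.5%). At kappa 17 of 93 were, 18.3% (11.0 to 27.6%). Over the whole list the share was 5.06%, on chromosome 22 it was 12.0% and on chromosome 2 it was 4.43%. The larger lambda share goes with its larger cover. Per kb under H3K27ac, kappa held 0.519 peaks and lambda 0.209, against 0.319 over the list. An overlap of 1 bp counts as inside, which raises this value for narrow regions. Kappa regions were the narrower, with a median width of 892 bp against 1745.5 bp, and how far this set the kappa value was not tested. Per kb outside the mark the loci held 0.0662 and 0.0645 peaks, against 0.0682 over the list.

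The stronger peaks were few in number at both loci. Their shares, 7.53% of kappa and 11.25% of lambda peaks, were above the 1.81% of the list. At lambda 7 of the 9 stronger peaks lay inside an H3K27ac region, 77.8% (40.0 to 97.2%), while over the list 56.5% did. At kappa 0 of 7 did, which allows a share of up to 41.0% if the peaks are independent. All 7 lay within one stretch of 48.7 kb, so they may count as fewer than 7. Read from the regions, 17 of 34 lambda regions held a CREBBP peak (50%, 32.4 to 67.6%) and 12 of 27 kappa regions did (44.4%, 25.5 to 64.7%), near the 49.0% of the list. Of all 34 lambda regions 4 held a stronger peak, and of all 27 kappa regions 0 did, against 11.4% of the list.

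The peaks inside and outside the mark also differed in size. The fold and p of a CREBBP peak together give a whole number of ChIP fragments at its summit and the background expected there, under the formula of the peak caller. Both are inferences from the deposited values. At lambda the 28 peaks inside had a median of 13.5 fragments (interquartile range 10 to 16.75) on a background of 4.62, and the 52 outside had 5 (4 to 7) on 1.70. At kappa the 17 inside had 8 (7 to 10) on 2.61 and the 76 outside had 5 (4 to 8) on 1.65. Over the list the values were 16 fragments on 6.87 inside and 5 on 1.30 outside. The median fold differed little, 2.48 inside and 2.21 outside at lambda and 2.43 and 2.38 at kappa. Background rose together with fragments, and whether copy number or accessible chromatin set it was not tested.

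The lambda constant part, which holds the J-C genes with IGLL5, IGLC1, IGLC2 and IGLC3 and the 3′ enhancer, was the most heavily marked of the 4 parts. Which of its marked bases lie at the genes and which at the enhancer was not determined here. H3K27ac covered 50.9 kb of its 80.0 kb, 63.6%, in 3 regions. The lambda variable part had 9.64% covered, so the constant part had 6.60 times its share. The first region, chr22:23242224-23243588, was 1365 bp wide with a fold of 10.8 and held no CREBBP peak. The second, chr22:23247183-23257843, was 10661 bp wide with a fold of 3.44 and held 2 CREBBP peaks. The last, chr22:23259369-23298200, was 38832 bp wide with a fold of 7.31 and held 7 CREBBP peaks.

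That last region was the widest of all 18263 in the list and made up 76.4% of the marked bases of the constant part. Without it and the bases under it, the constant part still had 3.03 times the cover of the variable part. The second region ranked 114 by width. Broad regions are joined by the caller across short gaps, so a single region can span several promoters and enhancers.

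**Figure D3:**
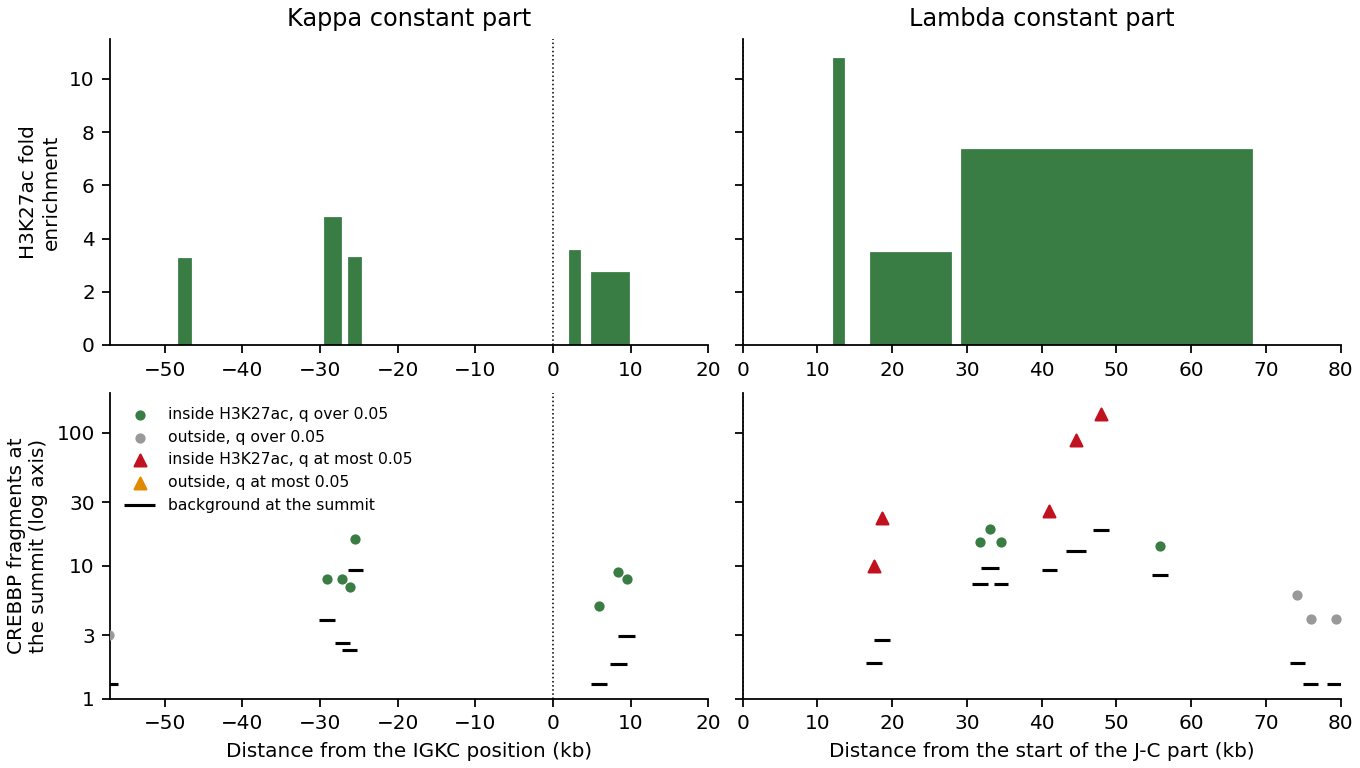
The constant parts of kappa (left) and lambda (right), with each H3K27ac region drawn to scale as a bar of its fold (top) and each CREBBP peak as a point at its fragments (bottom, log axis) above a dash for its background. Distances are in kb from the IGKC position and from the start of the lambda constant part. The 2 highest lambda peaks have 89 and 138 fragments and no kappa peak there has more than 16.

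CREBBP was strongest in the same stretch. The lambda constant part held 12 peaks, of which 5 were stronger ones (41.7%, 15.2 to 72.3%), while the variable part held 68 peaks and 4 stronger ones (5.88%, 1.63 to 14.4%). Per Mb the constant part had 150.0 peaks (77.5 to 262) and the variable part 79.1 (61.4 to 100.2), a ratio of 1.90 whose interval, 0.935 to 3.53, includes 1. For the stronger peaks alone the ratio was 13.4 (2.89 to 67.7). Of the 12, 9 lay inside H3K27ac, 75% (42.8 to 94.5%), among them all 5 stronger ones. In the variable part 19 of 68 did, 27.9% (17.7 to 40.1%).

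The peak at chr22:23277653-23278286 had 138 fragments over a background of 18.5, a fold of 7.14 and a −log10 q of 65.5. It was the largest peak of either locus, ranking 21 by fold, 55 by −log10 q and 121 by fragments among all CREBBP peaks. Its neighbour at chr22:23274009-23275140 had 89 fragments over 12.9, a fold of 6.46 and a −log10 q of 38.5, ranking 42, 86 and 173. The summits lay 3.71 kb apart inside the widest H3K27ac region, 14.9 kb from its start and 20.3 kb from its end. The remaining 5 peaks in that region had 14 to 26 fragments over backgrounds of 7.33 to 9.62. This pair therefore stood above its surroundings in fragments and not only in background. In the whole list 3204 peaks had a background of 10 to 20 fragments. Their median was 25 fragments, and 6 of them had 89 or more.

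Another stronger peak of the widest region, chr22:23270812-23271265, had 26 fragments over 9.39, a fold of 2.60 and a −log10 q of 1.82. The second region held the peaks chr22:23247359-23247849, with 10 fragments over 1.85 and a fold of 3.86, and chr22:23248378-23248947, with 23 over 2.77 and a fold of 6.36. The latter ranked 46 in the list by fold with 23 fragments, where the peak that ranked 42 had 89, and its background was the lower. Beyond the last region 3 peaks of 4 to 6 fragments completed the constant part. The near-identical J-C copies limit where short reads can be placed, and the effect of this on peaks and regions was not tested.

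The end of the constant part nearest the V segments was bare. The first region began 12.2 kb and the first CREBBP peak 17.4 kb past the start of the constant part. The stretch before them, chr22:23165784-23242223, was 76.4 kb long and held no interval of either list. It was the longest such stretch of lambda. It separated the marked regions of the constant part from a marked block of the variable part.

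The kappa constant part, around IGKC, was also more marked than the kappa variable part, but far less than the lambda constant part. H3K27ac covered 11.2 kb of 77.0 kb, 14.5%, in 5 regions, against 1.96% of the kappa variable part. The ratio of constant to variable cover was 7.43, close to the 6.60 of lambda. With only the upper 50% of all H3K27ac regions by −log10 q, no region of the kappa constant part remained and this ratio was 0. Cover at lambda was 4.38 times that at kappa in the constant parts and 4.93 times in the variable parts. With all regions kept, the difference between the loci was thus present in both parts and was of like size.

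The 5 kappa regions lay on both sides of IGKC. Towards the V segments, chr2:89159134-89160417 began 2.13 kb from the IGKC position, with a width of 1284 bp and a fold of 3.53. The next, chr2:89161968-89166782, began 4.97 kb from it and was the widest of the locus at 4815 bp, ranking 968 in the list, with a fold of 2.72. On the side away from the V segments, chr2:89130762-89132286 (1525 bp, fold 3.28) ended 24.7 kb from IGKC. Beside it lay chr2:89127651-89129706 (2056 bp, fold 4.76), 27.3 kb away, and chr2:89108860-89110363 (1504 bp, fold 3.24), 46.6 kb away. All 5 had a fold below the list's median. Kappa enhancers are known in the intron before IGKC and beyond its 3′ end, and none of these regions was assigned to one.

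CREBBP peaks of the kappa constant part lay mostly inside the mark. Of its 8 peaks 7 lay in an H3K27ac region, 87.5% (47.3 to 99.7%), against 10 of 85 in the variable part, 11.8% (5.79 to 20.6%). None of the 8 was a stronger peak, and 0 of 8 allows a share of up to 36.9%, against 1.81% of the list. They had a median of 8 fragments and a median fold of 2.34, where the list had 5 and 2.17. The density was 104 per Mb (44.9 to 205) against 77.1 (61.6 to 95.3), a ratio of 1.35 (0.564 to 2.78) that does not separate the parts.

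The most enriched of them, chr2:89165082-89165702, had 9 fragments over 1.83, a fold of 3.53 and a −log10 q of 1.03, in the widest kappa region. In that region chr2:89162620-89163171 had 5 fragments over 1.30 (fold 2.60) and chr2:89166220-89166771 had 8 over 2.98. On the far side of IGKC, chr2:89131342-89131676 had the most fragments, 16, but over a background of 9.24. The peaks chr2:89127675-89128099, chr2:89129675-89130056 and chr2:89130681-89130960 had 7 or 8 fragments over 2.31 to 3.90. The remaining peak, chr2:89099458-89100143, had 3 fragments, lay outside the mark and crossed the edge of the window. The largest lambda peak had 138 fragments where the largest here had 16, and their backgrounds were 18.5 and 9.24.

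The lambda variable part was marked in blocks. When regions less than 60 kb apart were joined, the first block, chr22:22379817-22764804, spanned 385 kb with 21 regions and 13.9% of its bases covered. It held 27 CREBBP peaks, 13 of them inside the mark and 3 of them stronger ones. Within this block the gap from chr22:22652978 to chr22:22711403 was just under 60 kb, and no other joining distance was tried. A single region, chr22:22862602-22863453, with a fold of 9.77, stood by itself. A further block, chr22:23035325-23165783, spanned 130 kb with 9 regions, 21.7% covered, and held 16 CREBBP peaks, 6 inside and 0 stronger. The block that followed, in the constant part, was 56.0 kb long, 90.9% covered, and all 9 of its CREBBP peaks lay inside the mark.

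**Figure D4:**
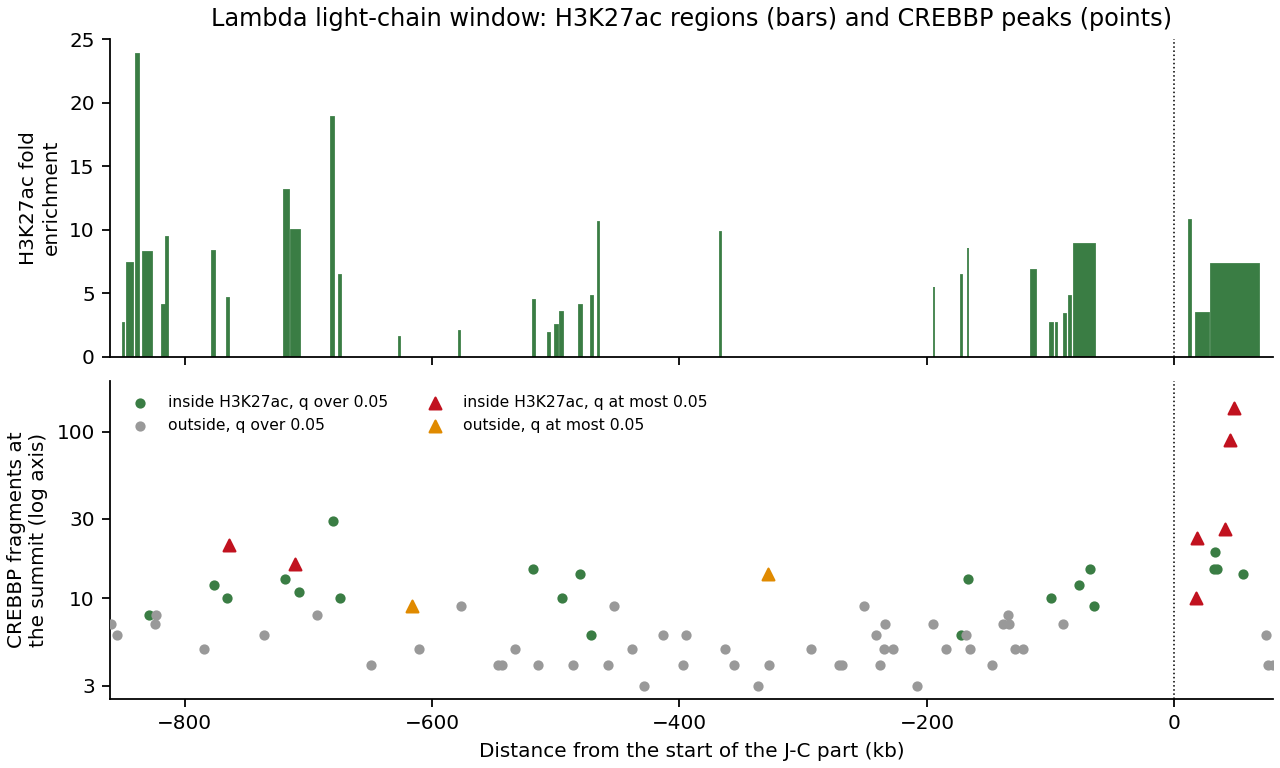
The lambda window, with distance in kb from the start of the constant part (dotted line). Bars are H3K27ac regions at their fold and points are CREBBP peaks at their fragments (log axis), with triangles for q at most 0.05. The highest H3K27ac folds lie towards the end away from the constant part. The 2 highest CREBBP peaks, at 89 and 138 fragments, lie in the constant part.

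The 3 highest folds of H3K27ac at lambda lay in the variable part, towards the window end away from the constant part. The median fold was still higher in the constant part, 7.31 over 3 regions, than in the variable part, 5.47 over 31. The region chr22:22390843-22393066 had a fold of 23.8, rank 150 in the list, and held no CREBBP peak. The region chr22:22548511-22550696 had a fold of 18.9, rank 406, and held 1 CREBBP peak of 29 fragments. The region chr22:22510148-22514294 had a fold of 13.1. These were the 3 lambda regions in the top 10% of the list by fold. The widest regions of the variable part were chr22:23149257-23165783 (16527 bp, fold 8.86, 3 CREBBP peaks, rank 31 by width), chr22:22396140-22403894 (7755 bp, fold 8.24) and chr22:22516350-22523199 (6850 bp, fold 9.94, 2 CREBBP peaks). The first of these is the last marked region before the bare stretch.

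The 4 stronger CREBBP peaks of the lambda variable part were split by the mark. The peaks chr22:22465268-22465815 and chr22:22518836-22519327 lay inside H3K27ac, with 21 fragments over 6.47 and 16 over 3.78. The peaks chr22:22613327-22613886 and chr22:22901426-22902013 lay outside, 9.29 and 38.0 kb from the nearest region, with 9 fragments over 1.30 and 14 over 2.06. Folds of the pair inside, 2.95 and 3.56, were below those of the pair outside, 4.34 and 4.90. At lambda, regions with a CREBBP peak had a median width of 2280 bp and fold of 6.45, and those without had 1365 bp and 4.73. Holding a peak depends on width in itself, since a wider region has more bases to overlap.

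Away from the blocks lambda had long unmarked stretches. The longest without H3K27ac, chr22:22863454-23035324, was 172 kb and held 16 CREBBP peaks. The next, chr22:22764805-22862601, was 97.8 kb and held 7. The bare 76.4 kb stretch came after these. The longest without a CREBBP peak, chr22:23164873-23247358, was 82.5 kb and held or touched 3 H3K27ac regions. The next, chr22:22407306-22445698 and chr22:22619281-22653402, were 38.4 and 34.1 kb long and touched 2 and 1.

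The kappa variable part was thinly marked, and most of its mark lay on the IGKC side. There, up to chr2:89627253, 17 regions covered 4.10% of its bases. The block that contained IGKC, chr2:89108860-89453113, had 16 regions over 6.58% of 344 kb, and 5 of these belong to the constant part. A further block, chr2:89521286-89586970, held 6 regions over 65.7 kb. After it came 347 kb without H3K27ac, chr2:89586971-89933976, then 3 regions over 19.6 kb, 306 kb without, chr2:89953588-90259624, and 2 regions over 14.6 kb. The unmarked stretches held 25 and 21 CREBBP peaks. Of the 25, 21 lay within one group of 48.7 kb, and 203 kb of that same stretch held none. Outside the mark, kappa as a whole held 0.0662 peaks per kb and the whole list 0.0682. Between the blocks of the IGKC side a shorter stretch, chr2:89453114-89521285, had no mark over 68.2 kb and 5 CREBBP peaks. At the far end of the window, chr2:90211939-90280000 had no CREBBP peak over 68.1 kb and held the last 2 regions.

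**Figure D5:**
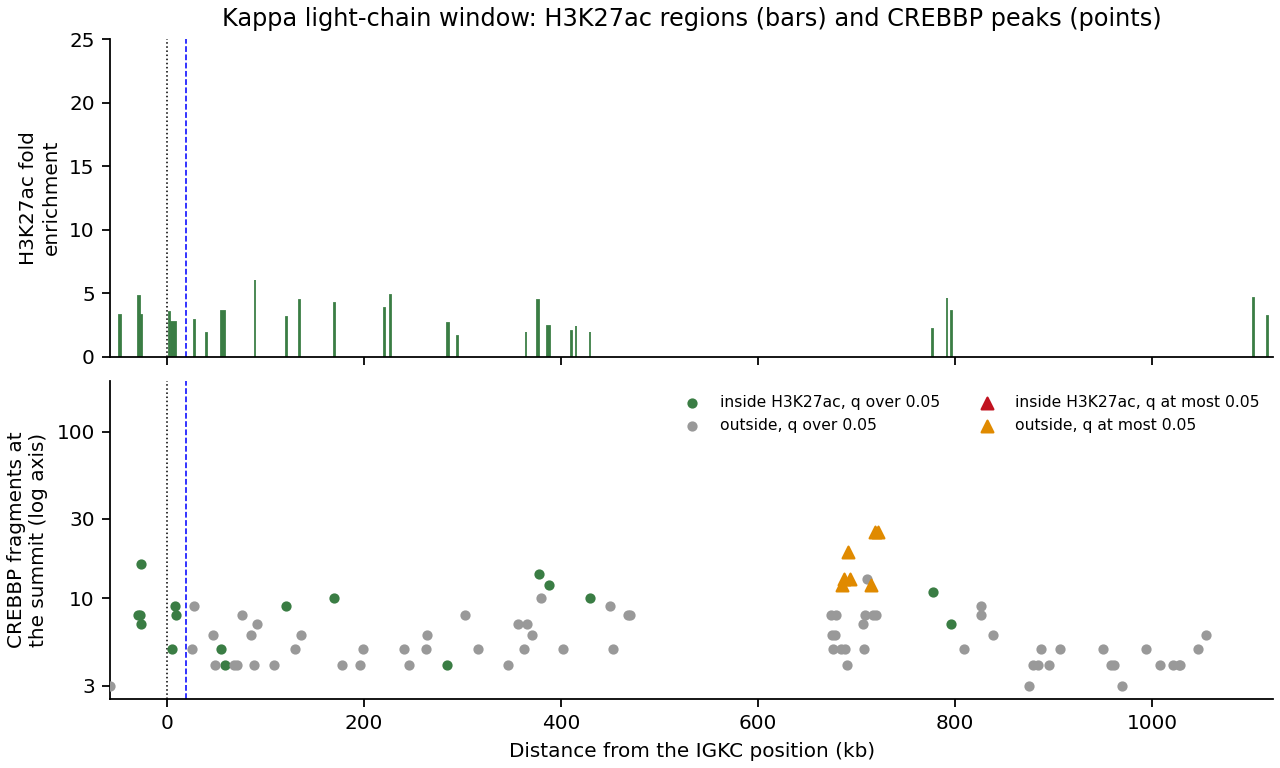
The kappa window on the same axes, with distance in kb from the IGKC position (dotted line) and the boundary of the constant part dashed. All stronger CREBBP peaks (orange triangles, 12 to 25 fragments) lie outside H3K27ac in one stretch beyond a 203 kb gap in both lists.

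The most enriched region of the kappa variable part, chr2:89246835-89247215, had a fold of 6.0 over 381 bp. It was the 1 kappa region above the list's median. It was followed by chr2:89384023-89384932 (fold 4.81) and chr2:89948491-89949382 (fold 4.58). The widest were chr2:89212679-89216197 (3519 bp, fold 3.59), chr2:89543261-89545784 (2524 bp, fold 2.37) and chr2:89451437-89453113 (1677 bp, fold 1.65). At kappa, regions with a CREBBP peak were the wider but not the more enriched ones. Regions with a peak had a median width of 1395 bp and fold of 3.18, and those without had 621 bp and 3.24. A wider region has more bases that a peak can overlap, so width and holding a peak are not independent.

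A stretch of 203 kb, chr2:89627254-89830655, held no interval of either list and split the kappa variable part. Build hg19 has an assembly gap between the proximal and distal clusters, and whether it is this stretch was not tested. On the IGKC side of it the variable part held 41 CREBBP peaks (91.1 per Mb), 17 H3K27ac regions and 4.10% cover. On the far side it held 44 CREBBP peaks (97.9 per Mb), 5 regions and 0.688% cover. Regions per Mb were 3.39 times as dense on the IGKC side (1.20 to 11.8), and cover was 5.97 times as large. The density of CREBBP peaks, far side over IGKC side, was 1.08 (0.687 to 1.69). That density was uneven on the far side, where 21 of the 44 peaks lay before the next H3K27ac region. From that region on, at chr2:89933977, the far side held 23 peaks, 66.5 per Mb (42.1 to 99.7).

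All 7 stronger kappa peaks lay in the 48.7 kb just beyond that empty stretch, chr2:89830656-89879391, which was singled out after its values were seen. It held 21 CREBBP peaks, and none was inside H3K27ac. It runs from the start of the first of these peaks to the end of the last, and so bounded their density was 431 per Mb. Over the whole 103 kb from the empty stretch to the next H3K27ac region the same 21 peaks gave 203 per Mb (126 to 311). The nearest marked region was 54.6 to 102.7 kb away. Fragments had a median of 8 (range 4 to 25) over a median background of 1.90. The other 72 kappa peaks had a median of 5 fragments over 1.83, and the highest −log10 q among them was 1.29, just short of the 1.30 that q of 0.05 equals.

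The 2 largest were chr2:89875059-89876061, with 25 fragments over 2.77, a fold of 6.89 and a −log10 q of 11.6, and chr2:89878469-89879391, with 25 over 3.02, a fold of 6.46 and a −log10 q of 10.7. They ranked 24 and 41 in the list by fold, beside the 21 and 42 of the strongest lambda peaks. They had far fewer fragments than that lambda pair, over lower backgrounds. The peak chr2:89848630-89849039 had 19 fragments over 3.70 and a −log10 q of 4.30. The peaks chr2:89842158-89842784, chr2:89844478-89844942, chr2:89849826-89850898 and chr2:89870825-89872263 had 12 or 13 fragments, folds of 3.93 to 4.57 and −log10 q of 2.27 to 3.24. All 7 stronger kappa peaks thus lay in the variable part and outside H3K27ac. In the lambda variable part 2 of 4 stronger peaks lay inside the mark, and in the lambda constant part all 5 did. Whether copy number, repeated sequence or the placement of reads at duplicated V segments moves with the kappa group was not tested.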

How the data were processed

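ChIP-seq of SC1 cells gave 2 lists used here. The submitters' processing notes name hg19, MACS2, STAR, Bowtie2 and fastp. What each did, and the control library, is not given in the sources used here. The authors deposited narrow CREBBP peaks and broad H3K27ac regions, each with a score, a fold (the ratio of signal to background), a −log10 p and a −log10 q. All are the authors' values and were used only within a list. No library depth is given.

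The windows, genes and lists were chosen with earlier results of these data known. Chromosomes 1 to 22 and X were used, and positions are hg19, counted from 1. Fragments and background at each CREBBP summit were solved by taking fold as fragments plus 1 over background plus 1, and p as the upper Poisson tail. A whole number matched −log10 p within 0.001 for 215580 peaks (99.99%), including all 173 members. The lowest background was also the commonest, 1.30 fragments. A higher background raises the fragments a peak needs to be called.

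Ratios of densities carry exact conditional 95% intervals. No p-value was computed. The text names every H3K27ac region of a constant part, the 3 widest and 3 most enriched of each variable part, every CREBBP peak of q at most 0.05, the 3 CREBBP peaks of largest fold in each part and the longest stretches without either. Other intervals were chosen after their values were seen. The closing section gives the alternatives. Code was tested on simulated data and run with Python 3.11.15, numpy 2.4.6, pandas 2.3.3, scipy 1.17.1 and matplotlib 3.10.9.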

Additional observations from a re-analysis of the deposited data

How the results depend on the processing

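Of 36 values recomputed under another setting, 26 stayed within 1.5 times the reported value, 9 moved farther and 1 turned. With CREBBP peaks of q at most 0.05 alone, the density ratio of lambda to kappa was 1.61, the share inside H3K27ac was 0% at kappa and 77.8% at lambda, and the density ratio of constant to variable part was 0 at kappa and 13.4 at lambda. With only the upper 50% of H3K27ac regions by −log10 q, kappa kept almost no mark. Its cover was 0.0323%, its share of CREBBP peaks inside was 0% and its ratio of constant to variable cover was 0, which turns the direction, since no region of the constant part was left. Lambda cover was 8.96% without the outer 50 kb of the window, a trim that removes most of the constant part and nearly all of its widest region. The ratio of constant to variable cover at lambda was 3.03 without the widest region, a setting added after seeing the data. The other added settings left out the 203 kb empty kappa stretch or the stretch after it. They gave 0.894 and 1.27 for the density ratio of lambda to kappa, which was 0.950 without the outer 50 kb, so its direction is not settled. The interval of the lambda constant to variable density ratio lay above 1 with the upper 50% of CREBBP peaks by −log10 p, at 2.36 (1.11 to 4.60), and with the boundary 10 kb farther into the constant part, at 2.19 (1.08 to 4.08). Most kappa peaks outside the mark had 4 to 8 fragments, which limits the kappa counts, and the library depth is not given.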

Other observations

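The ground on either side of the loci was not alike. Windows of the same length were laid against each side. Below kappa the list held 109 CREBBP peaks per Mb and 2.23% H3K27ac cover with a median fold of 4.38, so the flank was nearly as covered as kappa and its regions were more enriched. Above kappa, on the side of the distal V segments, it held 28.8 CREBBP peaks per Mb and 1 H3K27ac region. That density is over the full 1180 kb of the flank, and how much of this is assembled sequence was not determined. Of those 34 CREBBP peaks 15 had q of at most 0.05, 44.1%, with up to 117 fragments, over a median background of 3.96. This flank runs towards the centromere of chromosome 2, and whether repeated sequence moves with these peaks was not tested.

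Below lambda the flank had 66.0 CREBBP peaks per Mb, 2.13% cover and 3 stronger peaks. Above lambda, beyond the constant part, H3K27ac covered 9.92%, in 33 regions with a median fold of 4.84. That flank held 7 stronger CREBBP peaks, all 7 inside H3K27ac. Cover was thus 9.92% beyond the lambda constant part and 2.13% on the V side of the locus.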
